A study of Homo sapiens with 6 samples.

Results

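The BCL2 family was read by every probe set annotated to exactly 1 of 10 gene symbols: BCL2, BCL2L1, BCL2L2, MCL1, BCL2A1, BAK1, BAD, BIK, BMF and BCL2L11. All 10 genes were found, with 48 of the 49293 probe sets of the table, and BCL2L11 alone had 14 of them. Total RNA was measured on 6 Affymetrix arrays of A375, an established human melanoma cell line. On 3 arrays the cells carried a stable short hairpin RNA against the kinase MAP4K5 (knockdown), and on 3 they were A375 cells without it (control), all grown in serum-supplemented DMEM without treatment. The labels name no vector for the control cells, no number of clones for the knockdown line and no hairpin sequence. Loss of MAP4K5 and any other effect of the hairpin or of line selection cannot be told apart.

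Proteins of this family decide whether the outer membrane of mitochondria stays intact. BCL2, BCL2L1 (BCL-X), BCL2L2 (BCL-W), MCL1 and BCL2A1 (BFL1) guard the membrane. BAK1 is an effector that forms pores in it, and the BH3-only proteins BAD, BIK, BMF and BCL2L11 (BIM) bind the guardians and release or activate the effectors. In melanoma cells with an activated BRAF-MEK-ERK pathway, which A375 cells have, that pathway is known to keep BIM protein low, and the melanocyte factor MITF is known to act on the BCL2 and BCL2A1 genes.

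Levels are RMA intensities, one linear value for each probe set and array, with array medians of 4.85 to 4.94. Because probes differ in how brightly they bind, fold changes compare arrays at one probe set, and a place above or below the median gene says only how near a probe set lies to the low end of the scale. MAP4K5 had an intensity of 18.8 to 20.3 in knockdown cells, against 76.3 to 78.1 in control cells, at its brightest probe set. Control replicate 2 stood apart from the other controls: over all genes the SD of the log2 difference was 0.32 between it and control replicate 1 or 3, and 0.20 between those. Between it and the knockdown arrays the SD was 0.27 to 0.28. The fold change of each family gene is therefore also given without control replicate 2. That fit leaves out the control nearest to the knockdown arrays. Of the 8 melanocyte markers measured, MITF, SOX10 and S100B lay above the median gene. Of the 8, 1 rose (MITF, given with BCL2A1) and 2 fell in knockdown cells, against 3.70% and 4.13% of all genes. S100B, a calcium-binding protein of melanocytes, measured 26.9, 24.7 and 29.7 in knockdown cells, against 66.2, 55.2 and 82.0 in control cells (log2 fold change -1.31 ± 0.15 SE, limma adjusted p = 0.00256), and its call held whichever array was left out (-1.45 to -1.16). SOX10, a lineage factor that induces MITF, measured 23.7, 22.1 and 22.9 in knockdown cells, against 34.5, 28.3 and 37.7 in control cells (-0.54 ± 0.11 SE, adjusted p = 0.0286). Among the fits without 1 array the SOX10 call held only without control replicate 2 (-0.66), and it was lost with 16 added before the log (-0.34); as the mean of its probe sets the change was -0.30 and called. PMEL, MLANA, TYR and TYRP1 lay between 2.34 and 3.90 in all 6 arrays, below the median gene (8.82), so these pigment genes were at the low end of the scale. MC1R, the remaining marker, measured 6.56, 7.07 and 6.03 in knockdown cells, against 9.65, 8.45 and 7.66 in control cells. Its mean was also below the median gene, and it was lower in knockdown cells without overlap (-0.39, limma adjusted p = 0.0706, not called). Among the markers of other cell types, 2 of 5 keratinocyte genes and 1 of 5 leukocyte genes lay above the median gene, and 0 of 6 fibroblast and 0 of 5 endothelial genes did. The summed intensity of the keratinocyte markers was 171.9 to 187.9 in knockdown cells and 123.5 to 146.6 in control cells. Most of it was KRT10, at 148.4 to 164.4 and 108.6 to 129.7. KRT10 (log2 fold change 0.43, limma adjusted p = 0.0330) and KRT14 (1.09, adjusted p = 0.00687) rose. KRT1 and KRT5 overlapped between groups, and DSG3 was lower in knockdown cells without overlap (-0.20, not called). The part of these markers in the results was not tested.

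For the comparison of genes, each gene was represented by its brightest probe set, and limma was fitted to log2 intensities of all 18132 genes with Benjamini-Hochberg adjustment (called: adjusted p under 0.05). Of the 10 family genes, 1 was called: BAD rose 1.35-fold in knockdown cells. None of the 10 fell by this test. Over all genes 7.83% were called, 3.70% upwards and 4.13% downwards, so a count of 1 in 10 lies near that background. At an unadjusted p under 0.05 the count was 3 of 10, BAD, BAK1 and BCL2A1, against 23.5% of all genes. The median log2 fold change of the 10 genes was 0.02, against 0.01 over all genes. Changes were small: the largest in size was that of BAD, at 0.43.

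The arrays of both groups did not overlap for BAD, BAK1 and BCL2L11, each higher in knockdown cells. A gap upwards was seen in 14.9% of all genes and a gap in either direction in 28.1%. In a separate limma fit to all 44988 probe sets with 1 symbol, 2 of the 48 family probe sets were called, both higher in knockdown cells, against 4.48% of all probe sets (1.98% upwards and 2.50% downwards). These were the second brightest probe set of BAD and the second brightest of BCL2L1. Across the 48, knockdown lay entirely above control in 7 and entirely below in 0, against 12.2% and 11.8% of all probe sets (24.0% in either direction).

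**Figure D1:**
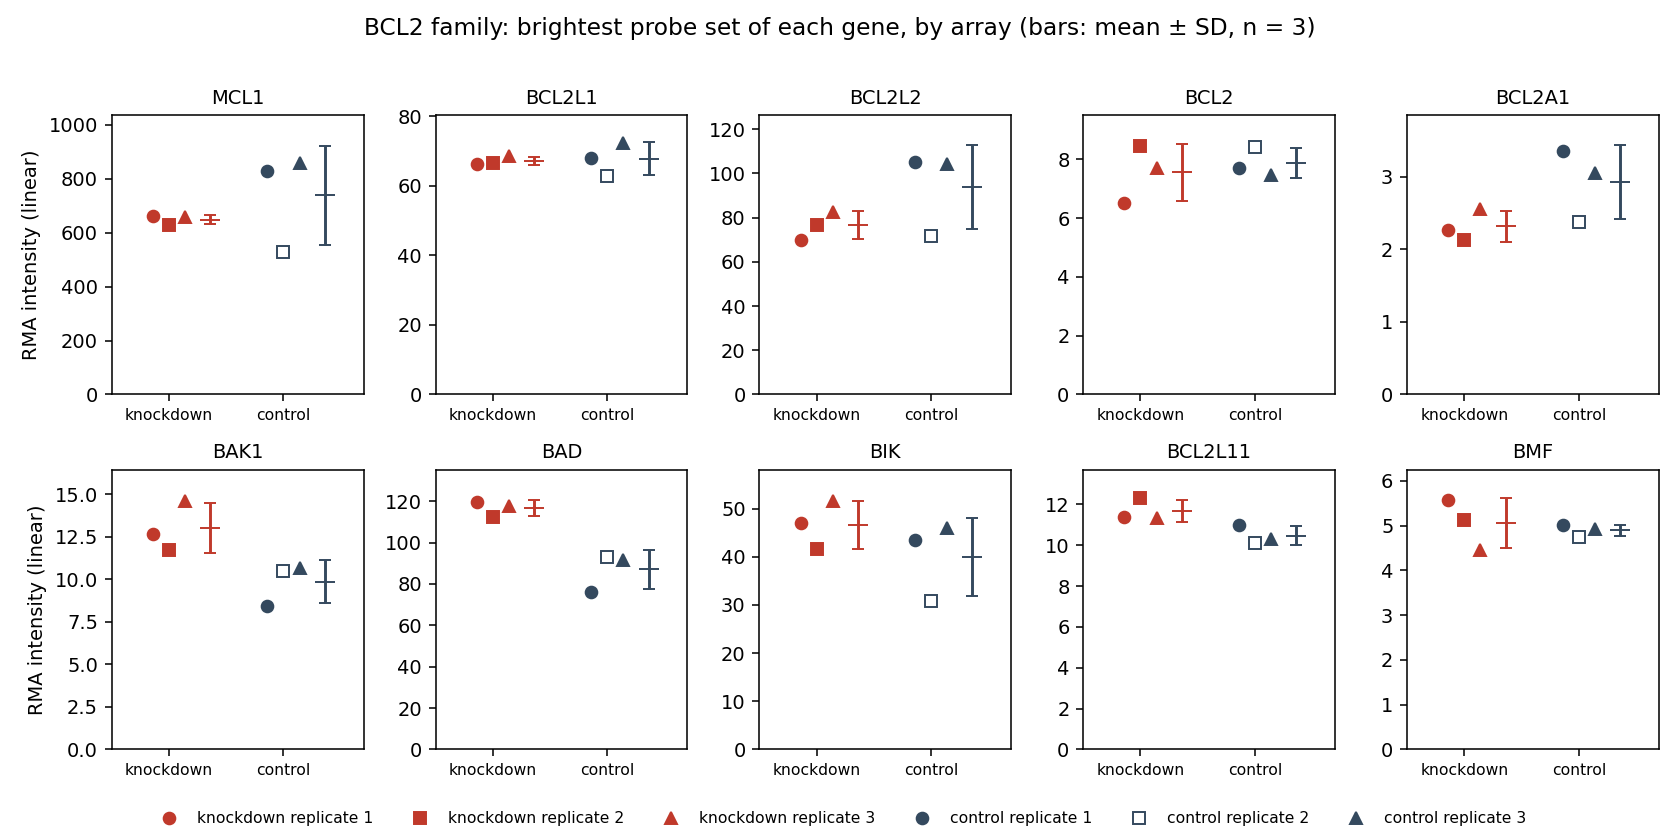
RMA intensity (linear axis from 0) of the brightest probe set of each gene, by array, with knockdown arrays in red on the left, control arrays in dark blue on the right and control replicate 2 as an open square. Bars give the mean ± SD (n = 3); BAD, BAK1 and BCL2L11 have no overlap between groups, and for MCL1, BCL2L2 and BCL2A1 control replicate 2 lies with or below the knockdown arrays.

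The count of called family genes depended on single arrays. It was 5 without control replicate 2, with BAD and BAK1 higher and MCL1, BCL2L2 and BCL2A1 lower in knockdown cells. It was 0 without control replicate 1, without control replicate 3, and without any of the knockdown replicates. Over all genes, 20.6% were called without control replicate 2, 10.5% upwards and 10.1% downwards. Of the 48 family probe sets, 4 were then higher and 3 lower in knockdown cells, against 6.58% and 7.04% of all probe sets (13.6% together).

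**Figure D2:**
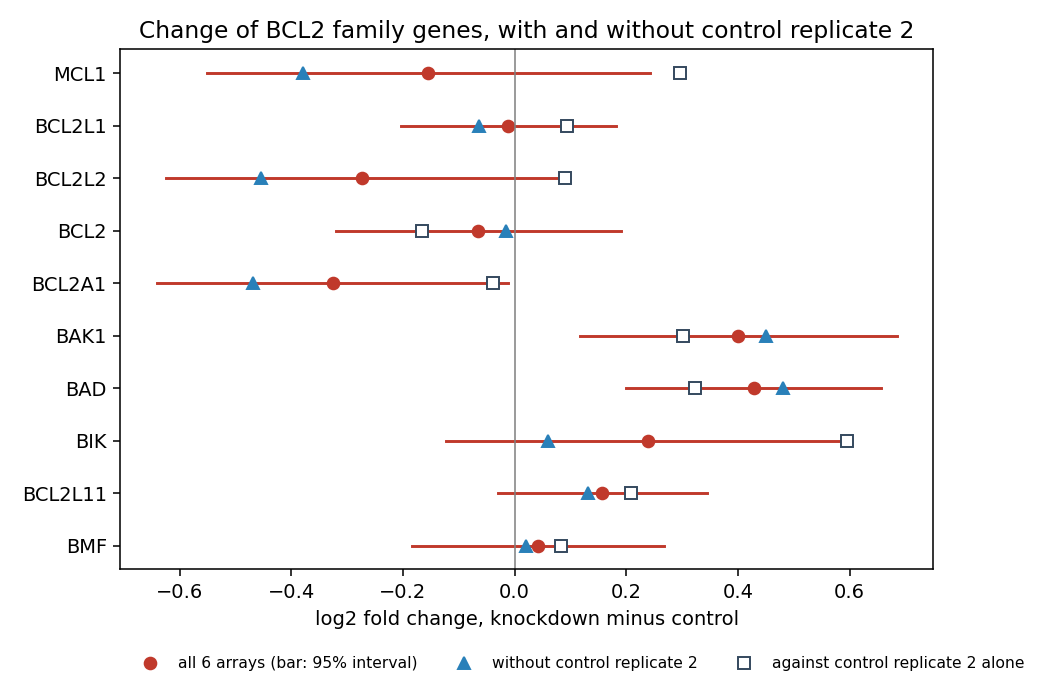
Log2 fold change (knockdown minus control) of each gene in the fit of all 6 arrays, with its 95% interval (red), without control replicate 2 (blue triangles) and against control replicate 2 alone (open squares). BAD and BAK1 stay between 0.30 and 0.48 in all 3, while MCL1 runs from -0.38 to 0.30.

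MCL1, a short-lived guardian that many cancer cells depend on, had an intensity of 660.9, 628.2 and 656.9 in knockdown cells, against 828.9, 528.3 and 859.0 in control cells. The knockdown arrays lay close together, between control replicate 2 and the other controls. The log2 fold change was -0.15 ± 0.17 (SE, limma adjusted p = 0.661), with a 95% interval of -0.55 to 0.24. Without control replicate 2 it was -0.38 (adjusted p = 0.0111). Set against that control only, it was 0.30, in the opposite direction. The ID of that probe set ends in _s_at, a suffix (like _x_at) for probes that can bind several transcripts, those of other genes included. The next brightest probe set of MCL1 measured 350.3, 336.7 and 344.8 in knockdown cells, against 347.6, 285.2 and 398.0 in control cells (log2 fold change 0.01 ± 0.12), and there the knockdown arrays fell inside the control range. Of the 6 MCL1 probe sets, 3 had a positive and 3 a negative fold change, from -0.20 to 0.13. By limma 0 were called (4.48% of all probe sets), with 0 at an unadjusted p under 0.05 (19.6% of all probe sets).

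BCL2L1 encodes BCL-XL, which guards mitochondria, and a short splice form that promotes death. Its brightest probe set, whose ID ends in _x_at, measured 66.3, 66.6 and 68.6 in knockdown cells, against 68.1, 62.9 and 72.4 in control cells. The groups overlapped fully, with a log2 fold change of -0.01 ± 0.08 (95% interval -0.20 to 0.18), 0.01 with the arrays shifted to a common median and -0.06 without control replicate 2. The second brightest probe set measured 17.0, 17.3 and 18.7 in knockdown cells, against 11.2, 12.8 and 13.6 in control cells. All knockdown values were above all control values, a rise of 1.41-fold (log2 0.50 ± 0.10 SE, limma adjusted p = 0.0309 over all probe sets). It held its call without control replicate 2 (0.52, adjusted p = 0.0187) but not without any other single array, with fold changes of 0.42 to 0.56 over those 6 fits. The third probe set stayed between 3.82 and 4.33 in all arrays.

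The log2 ratio of the second to the brightest BCL2L1 probe set was -1.96, -1.95 and -1.87 in knockdown cells, against -2.61, -2.29 and -2.42 in control cells. The mean ratio was higher by 0.51 in knockdown cells, with no overlap. The suffix of the brightest probe set marks probes that can bind several transcripts, those of other genes included. The part of that binding in the ratio was not tested. This pair was chosen after its values were seen, so no test is given. The transcript that each probe set reads was not resolved here.

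**Figure D3:**
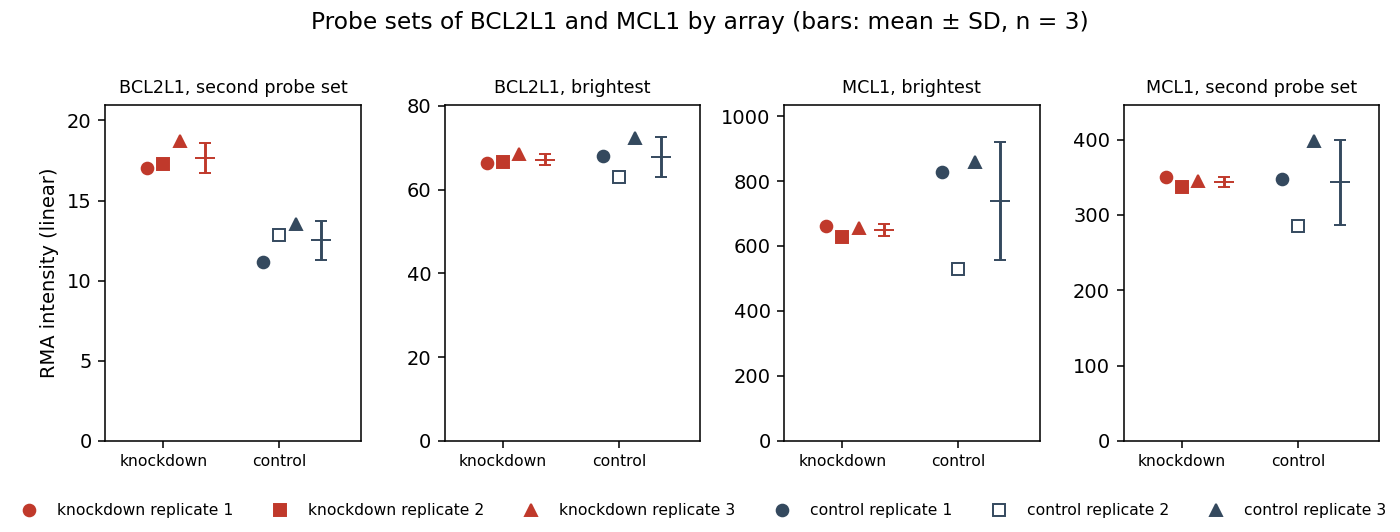
RMA intensity (linear axis from 0) by array for the second and the brightest probe set of BCL2L1 and the brightest and the second of MCL1, with knockdown on the left and control on the right of each panel, and mean ± SD (n = 3). The second BCL2L1 probe set separates the groups (17.0 to 18.7 in knockdown cells, 11.2 to 13.6 in control cells) and the other 3 panels overlap.

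BCL2L2, a guardian close to BCL-XL in structure, had an intensity of 70.1, 76.9 and 82.7 in knockdown cells, against 105.1, 71.8 and 104.3 in control cells. Control replicates 1 and 3 were above every knockdown array, and control replicate 2 lay among them. The log2 fold change was -0.27 ± 0.15 (SE, limma adjusted p = 0.336) with all arrays, -0.45 (adjusted p = 0.0111) without control replicate 2, and 0.09 against only that control. The other 2 probe sets of BCL2L2 ranged from 2.67 to 3.77, at the low end of the scale, with fold changes of -0.07 and 0.05.

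BCL2, which gives the family its name, was near the median gene. Its brightest probe set had an intensity of 6.52, 8.46 and 7.71 in knockdown cells, against 7.71, 8.44 and 7.48 in control cells. The groups overlapped, with a log2 fold change of -0.07 ± 0.11 (SE) and a 95% interval of -0.32 to 0.19 (-0.01 without control replicate 2). All 6 BCL2 probe sets overlapped between groups, with fold changes of -0.17 to 0.09. Of all probe sets, 24.0% did not overlap.

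BCL2A1, a guardian that MITF is known to induce in melanocytes and melanoma, lay at the bottom of the scale. Its brighter probe set measured 2.27, 2.13 and 2.56 in knockdown cells, against 3.36, 2.38 and 3.05 in control cells. Controls 1 and 3 were highest and control replicate 2 lay among the knockdown arrays. The log2 fold change was -0.33 ± 0.14 (SE, limma adjusted p = 0.198), -0.47 (adjusted p = 0.0145) without control replicate 2 and -0.04 against it alone. The lowest intensity in the whole table was 1.55. Differences this close to it can be background rather than RNA, and RMA compresses fold changes there. With 16 added before the log the BCL2A1 change was -0.05 (limma adjusted p = 0.352). MITF itself, an inducer of pigment genes, rose 1.98-fold, with 121.7, 115.7 and 117.8 in knockdown cells, against 50.6, 79.4 and 52.8 in control cells (log2 0.99 ± 0.16 SE, adjusted p = 0.0114). Its call was lost without any one of the knockdown replicates, with fold changes of 0.97 to 1.01 there.

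MCL1, BCL2L2 and BCL2A1 shared the same order of arrays: controls 1 and 3 above all knockdown arrays, and control replicate 2 not above the knockdown range. Of the 10 family genes 3 had that order, against 9.17% of all genes, and this order was picked out after the values were seen.

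BAK1, the pore-forming effector in the set, had an intensity of 12.7, 11.7 and 14.6 in knockdown cells, against 8.43, 10.5 and 10.7 in control cells. Every knockdown array was above every control array, yet the difference did not pass the test (log2 fold change 0.40 ± 0.12 SE, limma adjusted p = 0.0906). It passed without control replicate 2 (0.45, adjusted p = 0.0482). The third brightest BAK1 probe set measured 6.19, 5.34 and 6.06 in knockdown cells, against 4.30, 4.47 and 4.71 in control cells (0.38 ± 0.09, adjusted p = 0.0591 over all probe sets). The remaining 3 overlapped between groups, with fold changes of -0.03 to 0.07, so the 5 probe sets of BAK1 did not read alike.

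BAD, a BH3-only protein that binds BCL2, BCL-XL and BCL-W and is held inactive by phosphorylation downstream of survival kinases, was the gene that rose. Its brightest probe set, with an ID ending in _x_at, measured 119.7, 112.2 and 117.9 in knockdown cells, against 76.1, 93.1 and 91.7 in control cells. The averages were 116.6 ± 3.93 in knockdown and 87.0 ± 9.44 in control cells (SD, n = 3 each). The log2 fold change was 0.43 ± 0.10 (SE, 95% interval 0.20 to 0.66, limma adjusted p = 0.0385 over all genes). In bulk RNA a change in every cell and a change in a share of the cells cannot be told apart.

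The second BAD probe set measured 50.8, 46.6 and 50.5 in knockdown cells, against 35.6, 39.9 and 36.8 in control cells. It rose 1.32-fold (log2 0.40 ± 0.09 SE, limma adjusted p = 0.0444 over all probe sets), while the brightest had an adjusted p of 0.0546 in that fit. Both probe sets therefore separated the groups and gave nearly the same fold. Their log2 ratio overlapped between groups, at -1.24 ± 0.02 in knockdown and -1.21 ± 0.11 in control cells (SD, n = 3 each). The direction was positive in every fit without 1 array (0.33 to 0.48 for the gene), but the call held only without control replicate 2 (0.48, adjusted p = 0.0120).

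The 3 genes whose log2 profile over the 6 arrays lay nearest to that of BAD, each centred on its own mean, were CUTA, ARPC4 (a subunit of the actin-nucleating ARP complex) and MANEAL. Their Euclidean distances were 0.0641, 0.0642 and 0.0650, against a median of 0.629 over all genes. Each was called in the gene fit, with a log2 fold change of 0.45, 0.44 and 0.45. They were chosen for nearness to BAD over these same arrays, so similar fold changes follow from the choice.

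BIK, a BH3-only protein of the endoplasmic reticulum and mitochondria, had an intensity of 47.0, 41.6 and 51.5 in knockdown cells, against 43.4, 30.8 and 45.9 in control cells. Control replicate 2 was the lowest array. The log2 fold change was 0.24 ± 0.16 (SE, limma adjusted p = 0.422), 0.06 without control replicate 2 and 0.60 against it alone. The other 2 probe sets gave 0.21 and 0.09, and 0 of 3 were called, against 4.48% of all probe sets.

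BCL2L11, whose product BIM binds all the guardians and can activate the effectors, had an intensity of 11.4, 12.3 and 11.3 in knockdown cells, against 11.0, 10.1 and 10.3 in control cells at its brightest probe set. The groups were separate by a narrow gap, and the log2 fold change of 0.16 ± 0.08 (SE, 95% interval -0.03 to 0.34) did not pass the test (limma adjusted p = 0.299), and it was 0.13 without control replicate 2. Only 3 of its 14 probe sets lay above the median probe set (5.02). Between groups, 12 of the 14 overlapped and 2 lay entirely higher in knockdown cells. Of all probe sets, 12.2% lay entirely higher and 24.0% did not overlap. Over the 14, 8 fold changes were positive and 6 negative, from -0.23 to 0.18. The most negative came from the second brightest, with 10.5, 9.21 and 7.60 in knockdown cells, against 12.1, 10.0 and 9.86 in control cells (-0.23 ± 0.14 SE).

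BMF, a BH3-only protein that dynein light chains hold at the cytoskeleton, lay below the median gene, at 5.57, 5.13 and 4.46 in knockdown cells, against 5.01, 4.76 and 4.92 in control cells. Its log2 fold change was 0.04 ± 0.10 (SE, 95% interval -0.18 to 0.27), and 0.02 without control replicate 2. All 4 probe sets overlapped between groups, with fold changes of -0.06 to 0.04, while 24.0% of all probe sets did not overlap.

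**Figure D4:**
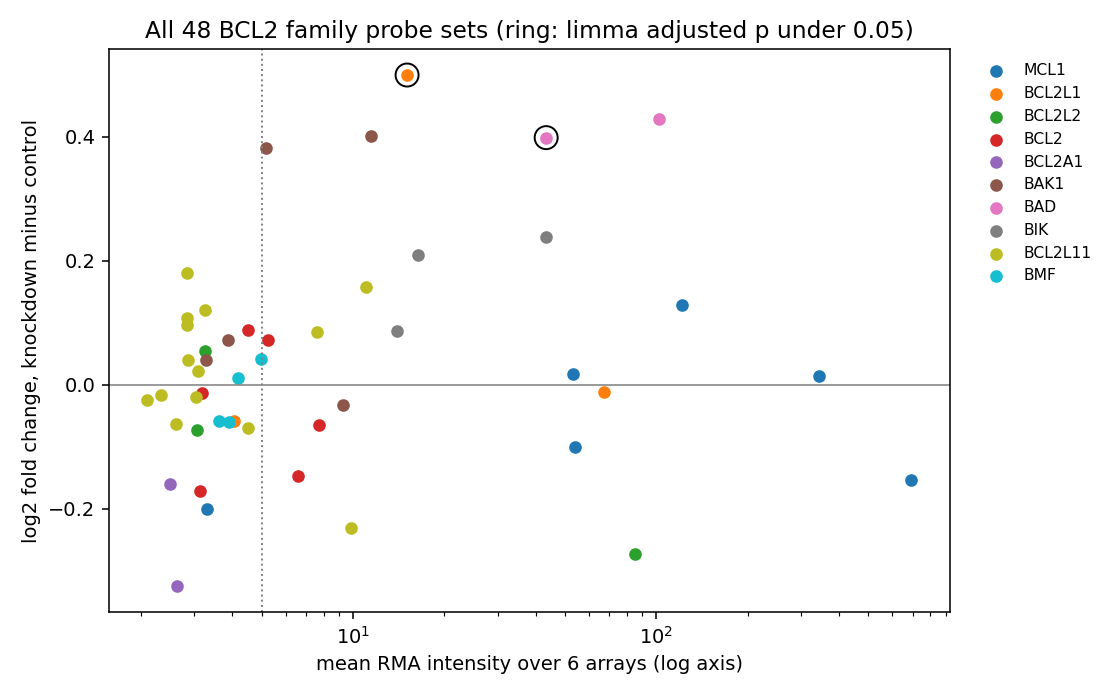
Log2 fold change (knockdown minus control) of all 48 family probe sets against their mean RMA intensity over the 6 arrays (log axis), coloured by gene, with rings for limma adjusted p under 0.05 and a dotted line at the median probe set (5.02). The ringed probe sets are the second brightest of BCL2L1 (0.50) and of BAD (0.40), and 22 of the 48 lie right of the dotted line.

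Promoter sequence is shown for BAD, the gene that rose, for BCL2A1, because MITF rose and is known to bind E-boxes, and for BCL2L11, because forkhead factors are known to induce it. Each run is the 250 bases before a start site given by RefSeq (GRCh38.p14), read 5′ to 3′ on the gene's strand, with motif matches in capitals. RefSeq's table matched 7 of the 10 genes, in 10 windows. BAD had another, overlapping window (chr11:64284666-64284915), which is not shown.
BAD (chr11:64284705-64284954, minus strand): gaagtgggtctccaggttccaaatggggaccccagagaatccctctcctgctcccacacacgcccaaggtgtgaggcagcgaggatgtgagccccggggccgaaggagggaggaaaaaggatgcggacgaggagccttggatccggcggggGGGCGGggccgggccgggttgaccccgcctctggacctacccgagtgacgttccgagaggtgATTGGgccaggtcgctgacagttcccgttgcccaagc
BCL2A1 (chr15:79971197-79971446, minus strand): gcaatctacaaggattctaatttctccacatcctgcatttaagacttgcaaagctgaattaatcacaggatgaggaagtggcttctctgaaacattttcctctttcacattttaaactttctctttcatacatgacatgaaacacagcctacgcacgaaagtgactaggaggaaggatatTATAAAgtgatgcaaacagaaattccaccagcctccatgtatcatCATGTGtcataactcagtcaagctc
BCL2L11 (chr2:111120664-111120913, plus strand): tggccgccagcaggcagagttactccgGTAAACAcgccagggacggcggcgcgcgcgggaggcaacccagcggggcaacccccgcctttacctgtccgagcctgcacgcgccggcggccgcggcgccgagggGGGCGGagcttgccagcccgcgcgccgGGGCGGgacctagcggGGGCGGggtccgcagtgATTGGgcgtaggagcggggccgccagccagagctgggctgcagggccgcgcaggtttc

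Motifs were searched on both strands in the same 250 bases, and matches of different motifs did not overlap in these windows. BAD held a GC box (GGGCGG) and an inverted CCAAT box (CCAAT), which 42.6% and 32.0% of all 35116 windows hold. BCL2A1 held the E-box CATGTG, the form found in promoters of pigment genes, and a TATA box (TATAAA), against 9.42% and 10.7% of all windows. BCL2L11 held 3 GC boxes, an inverted CCAAT box and the forkhead motif GTAAACA, which 2.98% of windows hold. The E-box CACGTG, the AP-1 motif TGANTCA and the motif TGACGTCA were in 0 of the 10 family windows, against 6.34%, 6.57% and 1.65% of all windows. GC content was 66.4% for the BAD window shown, 38.8% for BCL2A1 and 76.8% for BCL2L11, against a median of 58% over all windows. The other BAD window held the same motifs and had a GC content of 69.6%.

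Genes that act with or on the family were read from lists made from general knowledge, but chosen with earlier results of these data known. The counts and medians of these lists are therefore not independent of the data. Of 14 other family or BH3 genes, 0 rose and 1 fell, against 3.70% and 4.13% of all genes. The other 13 were not called, and the median log2 fold change of the list was -0.05. The gene that fell was BNIP3, which marks mitochondria for removal in hypoxia, with 245.0, 250.9 and 265.0 in knockdown cells, against 430.6, 363.1 and 338.5 in control cells (-0.57 ± 0.10 SE, limma adjusted p = 0.0181). As the mean of its probe sets the change was -0.35, still called. With _x_at and _s_at probe sets left out it was not called, at -0.12, and the call was also lost without any one of the knockdown replicates (-0.60 to -0.54). In the fit without control replicate 2, 1 of these genes was called higher and 4 lower, against 10.5% and 10.1% of all genes.

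Of 15 genes of the apoptosome, the caspases and mitochondrial release, 0 were called by limma, against 7.83% of all genes. At an unadjusted p under 0.05 there were 5 (23.5% of all genes), and the median log2 fold change was 0.11. The smallest p was that of DFFA, the inhibitor of the apoptotic nuclease DFFB (-0.40 ± 0.11 SE, adjusted p = 0.0613). Leaving out control replicate 2, 4 were called higher and 1 lower, against 10.5% and 10.1% of all genes. Of 6 inhibitors of apoptosis 0 were called in the gene fit, against the same 7.83%. At an unadjusted p under 0.05 there was 1, against the same 23.5%. That gene, BIRC5 (survivin), also a mitotic protein, stood at 0.30 ± 0.10 (adjusted p = 0.117). In the fit of all probe sets, 1 of the 12 BIRC5 probe sets was called, against 4.48% of all probe sets. Leaving out control replicate 2 again, 1 inhibitor was called higher and 1 lower, against the same 10.5% and 10.1%.

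Of 11 genes that govern the turnover or sequestration of MCL1 and BIM, 0 rose and 1 fell, against 3.70% and 4.13% of all genes. BTRC, a ubiquitin ligase subunit that recognises phosphorylated BIM and other targets, had 14.6, 11.2 and 14.2 in knockdown cells, against 18.3, 18.7 and 20.3 in control cells (-0.53 ± 0.12 SE, adjusted p = 0.0329). Its call was lost with _x_at and _s_at probe sets left out (-0.22), as the mean of its probe sets (-0.39), with 16 added before the log (-0.26) and without any single array other than control replicate 2 (-0.60 to -0.40). Without control replicate 2, 4 genes of the list were called higher and 2 lower, against 10.5% and 10.1% of all genes.

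Of 22 transcription factors known to act on family genes, 1 rose (MITF), 4 fell and 17 were not called. Over all genes 3.70% rose and 4.13% fell. The median log2 fold change of the list was -0.22, against 0.01 over all genes. EGR1, an immediate early factor, had 11.9, 11.4 and 13.9 in knockdown cells, against 82.7, 19.4 and 73.7 in control cells (-1.99 ± 0.48 SE, adjusted p = 0.0419). MYC, which sensitises cells to apoptosis, had 53.8, 54.6 and 60.8 in knockdown cells, against 130.0, 69.6 and 119.3 in control cells (-0.87 ± 0.21 SE, adjusted p = 0.0447). Among the fits without 1 array, both calls held only without control replicate 2 (-2.66 and -1.14). Both were also lost with 16 added before the log, at -1.26 for EGR1 (adjusted p = 0.146) and -0.72 for MYC (adjusted p = 0.119). As the mean of its probe sets EGR1 stood at -1.22 and was still called. In the fit of all probe sets, 1 of 6 EGR1 probe sets was called and the 1 MYC probe set was not, against 4.48% of all probe sets. For both, control replicate 2 lay nearest to the knockdown arrays, and the fold changes against it alone were -0.65 and -0.31. Without control replicate 2, 2 factors were called higher and 10 lower, against 10.5% and 10.1% of all genes.

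Of 16 kinases known to phosphorylate family proteins, 0 rose and 2 fell, against 3.70% and 4.13% of all genes. The other 14 were not called, and the median log2 fold change of the list was -0.11. PIM1, which phosphorylates BAD, had 22.1, 27.0 and 27.6 in knockdown cells, against 65.5, 44.4 and 63.0 in control cells (-1.16 ± 0.16 SE, adjusted p = 0.00594), a 2.23-fold decrease with no overlap. GSK3B, which marks MCL1 for degradation, had 90.5, 84.3 and 94.4 in knockdown cells, against 126.7, 107.9 and 131.7 in control cells (-0.44 ± 0.10 SE, adjusted p = 0.0364). The PIM1 call held whichever array was left out, and that of GSK3B only without control replicate 2 (-0.53). As the mean of its probe sets PIM1 stood at -0.66, still called, and GSK3B at -0.24, not called (adjusted p = 0.149). In the fit of all probe sets, 2 of 4 PIM1 and 0 of 2 GSK3B probe sets were called, against 4.48% of all probe sets. The fold changes of PIM1 and GSK3B against control replicate 2 alone were -0.80 and -0.27. With control replicate 2 left out, 3 kinases were called higher and 5 lower, against 10.5% and 10.1% of all genes.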

How the data were processed

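The authors deposited one intensity per probe set and array, computed with RMA (version not stated) per the submitters' processing notes. RMA removes background, forces the arrays to the same distribution and combines a set's probes into one value. The scale was taken as linear from the values, 1.55 to 6658. Log2 was taken here without a pseudocount or filter. Of 49293 probe sets, 44988 had 1 symbol in the platform annotation, 1832 several and 2473 none; 0 of the several named a family gene. Symbols were checked through Entrez identifiers (0 changed, 27 unmatched). For each of 18132 genes the probe set with the highest mean was used.

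Fits used limma 3.58.1 in R 4.3.3 (lmFit, eBayes) with Benjamini-Hochberg adjustment over all genes or all probe sets with 1 symbol, tested on simulated arrays first. Python 3.11.15, numpy 2.4.6, pandas 2.3.3 and matplotlib 3.10.9 served for the rest. Arrays are described as biological replicates with no more detail, so a p-value here rests on how much these 6 arrays differ, and their number limits the precision. An exact permutation test of 3 arrays against 3 cannot go below p = 0.1. Named genes were MAP4K5, all members, up to 2 rises and 2 falls of each list or its smallest p, and the 3 nearest profiles to the member with the largest change. Members and lists were chosen with earlier results of these data known. Genes of the lists with no probe set here were not analysed.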

Additional observations from a re-analysis of the deposited data

How the results depend on the processing

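The count of all called genes (1420) stayed within 1.5 times under the other settings tried except array weights (3103) and the fits without 1 array (324 to 3732). For all probe sets (2017), array weights gave 4337 and the fits without 1 array 360 to 6127. The count of called family genes (1) was 0 with the replicate block, 3 with array weights, 2 with _x_at and _s_at probe sets left out, and 0 to 5 without 1 array. The count of called family probe sets (2) was 1 with the replicate block, 4 with array weights, 4 with the lowest 50% left out, 3 after repeated quantile normalization and 0 to 7 without 1 array.

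The replicate numbers shared no sign of pairing: deviations from the group means of same-numbered arrays correlated at -0.08, 0.02 and 0.06 across genes, and knockdown replicate 1 correlated best with control replicate 2 (0.06). With the block, 1188 genes were called and BAD had an adjusted p of 0.0623. BCL2L1 was 0.0064 with arrays shifted to a common median, 0.14 as the mean of its probe sets and 0.50 without those ending in _x_at or _s_at, where its second probe set represents it. MCL1 was 0.014 without them, and BMF -0.017 as the mean of its probe sets. Without 1 array, BCL2 ranged from -0.15 to 0.038, BCL2L1 from -0.064 to 0.037 and BMF from -0.032 to 0.13. BAD kept a positive fold change in every alternative, control replicate 2 alone included (0.32 to 0.48). Adding 16 before the log, or leaving out the lowest 25%, kept the count of family genes at 1. Dim probe sets, 26 of the 48 below the median probe set, limit what can be seen for BCL2A1, BMF and most of BCL2L11.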
